A study of Schizosaccharomyces pombe with 4 samples.

Results

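The transcriptome of wild-type Schizosaccharomyces pombe, the fission yeast, growing in rich medium is described here from 2 of the 4 RNA sequencing libraries of the series. The members are the genes of the deposited count table: 49 ribosomal RNA genes were set aside, which left 7000 of 7049 genes, of which 5104 are nuclear protein-coding genes. The study also sequenced delta4dus, a strain that lacks all 4 dihydrouridine synthase genes, and that strain is not compared here. Both libraries carry the genotype label wild-type. The cells grew in YES, a rich medium of yeast extract with supplements, at a temperature of 32 °C. Cultures of 50 mL were collected when their optical density at 595 nm was near 0.5, and RNA was extracted with hot phenol. Ribosomal RNA was depleted from 1 µg of total RNA before strand-preserving libraries were made. The labels do not say whether the libraries came from separate cultures, so the spread between them may be technical. They give neither mating type nor nutritional markers.

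In rapidly dividing yeast much of the cell's mass is ribosomes, and sugar is fermented even in air, so messenger RNAs for ribosomal proteins, translation factors and glycolytic enzymes are abundant. Genes for mating, meiosis and the use of poor carbon or nitrogen sources are kept low until nutrients run out. Small stable RNAs guide splicing, ribosomal RNA processing and protein export, and outnumber most messenger RNAs.

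The libraries held 289767027 and 264948323 counts. Ribosomal RNA genes took 84.7% of counts in library 1 and 84.8% in library 2, a share in which a read of several copies counts more than once, and 44356401 and 40203853 counts remained for the 7000 genes. The level used below is the count per kilobase of annotated exon per 1000000 counts outside ribosomal RNA genes (RPKM), so levels of different genes are compared per length. Reads that map to several copies of a gene were counted at each copy, and genes that overlap on 1 strand share reads; both touch results below. In all sentences that give 2 levels of a gene, library 1 comes first. Reads carry no molecular identifiers, so limits from counting cover counting error only.

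Coding genes held 85.1% of the counts in library 1 and 84.1% in library 2. These shares include 2.05% and 4.43% in 5 coding genes that overlap a 5S ribosomal RNA gene, described below. Genes with an SPNCRNA identifier, the annotation's long and unclassified non-coding RNAs, held 8.20% and 8.63%, and the 7 genes with an SPSNRNA identifier, spliceosomal and U3 RNAs, held 2.17% and 2.59%. The 53 small nucleolar RNA genes held 2.12% and 2.37%. The 11 genes of the mitochondrial genome other than tRNA and rRNA genes held 1.90% and 1.69%, and 171 nuclear tRNA genes held 0.340% and 0.438%. Per gene the order was different. The median level was 3141 RPKM for the 7 SPSNRNA genes, 1524 for the mitochondrial genes, 565 for 25 mitochondrial tRNA genes, 459 for small nucleolar RNAs and 102 for nuclear tRNA genes. It was 23.7 for coding genes, 3.07 for 32 pseudogenes and 2.00 for 1541 SPNCRNA genes. These are counts per length in the libraries. How well short RNAs such as tRNA were recovered was not tested, so the order need not be that of RNA molecules in the cell.

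**Figure D1:**
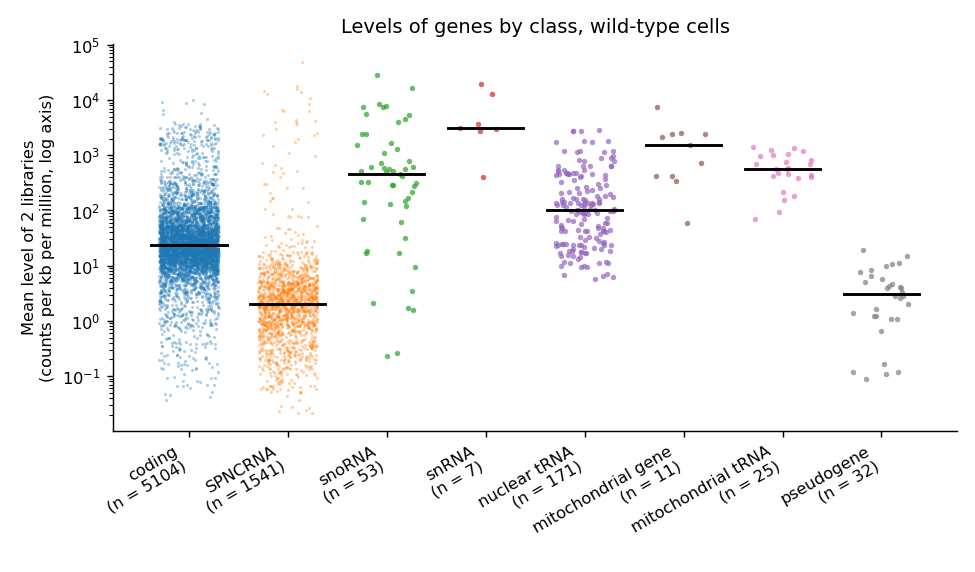
Mean level of the 2 libraries for each gene (log axis, counts per kb per 1000000 counts outside ribosomal RNA genes), by class; black bars are class medians, and genes at 0 are not drawn. Mating-region entries and nuclear identifiers with no match are not drawn. Of the 8 classes drawn, SPNCRNA genes have the lowest median, 2.00, and also the highest gene of all.

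The levels of coding genes spanned 5.43 orders of magnitude between the lowest gene with a count and the highest. Most stood close together: 3411 of the 5104 lay between 10 and 100 RPKM, and the upper quartile, 50.8, was 4.14 times the lower, 12.3. Only 157 coding genes exceeded 1000, 546 lay between 100 and 1000, 845 between 1 and 10, and 145 were under 1. The 100 coding genes with the highest levels, 1.96% of coding genes, took 29.4% of all counts outside ribosomal RNA genes in library 1 and 31.5% in library 2. As shares of coding counts these were 34.6% and 37.5%. Several of the 100 hold 5S ribosomal RNA reads, more in library 2, as described below. Without coding genes that overlap a 5S gene, the share of all counts was 28.8% as the mean of both libraries, against 30.5% with them. The 1000 highest took 76.6% and 78.3% of coding counts. The lower-ranked 2552 coding genes, 50% of them, took 8.48% and 7.89%.

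The 3 genes of translation elongation factor 1A, which brings aminoacyl-tRNA to the ribosome, were among the 4 highest coding genes. tef103 (SPBC839.15c, chromosome II, 626004 to 627556, minus strand) stood at 10364 and 10045 RPKM, tef102 (SPAC23A1.10) at 9299 and 8332, and tef101 (SPCC794.09c) at 8788 and 8485. These genes are near-copies: 77.8% of the 31-base windows in tef103 exons, 80.8% in tef102 and 73.2% in tef101 occur more than once in the genome, so each level includes reads of the others and the 3 values are not independent. All 8 listed elongation genes exceeded 2000. The genes of elongation factor 2, which moves the ribosome along the message, were at 3184 and 3131 (eft202) and 2871 and 2833 (eft201), and they too repeat each other over 88.2% and 88.7% of windows. tef3, elongation factor 3 of fungi, was at 2226 and 2299.

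Of the 25 highest coding genes, 8 repeat more than 20% of their 31-base windows elsewhere in the genome: the 3 elongation factor 1A genes, eft202, tdh1, ubi3, rpl301 and rpl1201. A further reason to share reads, an annotated overlap with another gene on the same strand, applies to 6 of the 25: tdh1, tef102, gpm1, rps2, rps13 and tpi1.

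Several glycolytic genes stood beside the elongation genes. tdh1 (SPBC32F12.11, chromosome II, 2807534 to 2809051, plus strand), glyceraldehyde-3-phosphate dehydrogenase, was at 8698 and 9755 RPKM. fba1, aldolase, was at 6316 and 6690, gpm1, phosphoglycerate mutase, at 5585 and 6027, and eno101, enolase, at 5192 and 6186. pgk1, phosphoglycerate kinase, was at 3989 and 4951, pdc101, the pyruvate decarboxylase that opens fermentation, at 3617 and 3641, and tpi1, triosephosphate isomerase, at 3166 and 3282. Steps before aldolase were lower: pfk1, phosphofructokinase, was at 761 and 824, pgi1, glucose-6-phosphate isomerase, at 574 and 633, and hxk2, hexokinase, at 418 and 490. The second enolase gene, eno102, was at 3.09 and 1.63, and 3 other pyruvate decarboxylase genes, pdc201, pdc202 and pdc102, were all under 5. The list of 20 had a median of 810 RPKM, against 23.7 over all coding genes.

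Ribosomal protein genes filled most of the places below these. All 137 stood above the median of coding genes, with a median of 1742 RPKM and a range of 41.5 to 3745. They made up 69 of the 100 highest coding genes and 128 of the 200 highest. The highest were rps2502 at 3805 and 3684, rps21 at 3856 and 3614, rpl301 at 3817 and 3619, and rps2 at 3571 and 3404. Together the ribosomal protein, elongation and glycolysis lists, 165 genes or 3.23% of coding genes, held 36.8% of coding counts in library 1 and 36.9% in library 2, and they supplied 23 of the 25 highest coding genes. The other 2 were ubi3, a fusion of ubiquitin with ribosomal protein S31, at 4089 and 4057, and cpc2, the RACK1 protein of the small ribosomal subunit, at 3485 and 3285.

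Fission yeast ribosomal protein promoters are known for the HomolD box, CAGTCACA, which takes the place of a TATA box there. Starts in this and the following promoter paragraphs are those annotated in RefSeq ASM294v3, which can differ from the deposited coordinates. Of 6844 matched genes, 6796 have the same start or end in both and 1983 have the same start and end. The deposited starts of rps21 (2083801), rpl301 (1756016), rpl4101 (5402276) and rpl1201 (691690) lie inside their windows printed below. In rps21 and rpl301 the box lies after the deposited start. The windows of 50 bases around the box in the 6 highest ribosomal protein genes that hold it are printed to show the box and the bases next to it. Each window was placed on the box, whose first base lies 66 bases before the annotated start in rps21, 49 in rpl301, 46 in rps2, 43 in rpl8, 47 in rpl4101 and 58 in rpl1201. They are read 5′ to 3′ on the gene's strand from RefSeq ASM294v3, with the box, or its reverse complement TGTGACTG, in capitals.
rps21, II:2083776-2083825, plus strand: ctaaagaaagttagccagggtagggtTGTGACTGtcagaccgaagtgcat
rpl301, I:1756010-1756059, plus strand: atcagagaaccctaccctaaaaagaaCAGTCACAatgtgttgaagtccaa
rps2, III:2096059-2096108, minus strand: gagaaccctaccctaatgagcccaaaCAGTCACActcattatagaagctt
rpl8, II:2045406-2045455, plus strand: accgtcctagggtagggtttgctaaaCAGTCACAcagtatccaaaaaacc
rpl4101, I:5402270-5402319, minus strand: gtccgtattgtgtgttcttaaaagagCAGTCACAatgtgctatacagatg
rpl1201, III:691681-691730, minus strand: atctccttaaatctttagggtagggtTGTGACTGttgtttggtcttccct

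Within 250 bases before to 50 bases after the annotated start, the box was found on either strand in 87 of 137 ribosomal protein promoters (63.5%), against 50 of 4966 other coding promoters (1.01%) and 2.68% of all 5103. In the ribosomal protein promoters its first base lay at a median of 51 bases before the start, with quartiles at 47 and 57. It read in the gene's direction in 43.1% of these promoters and in the opposite direction in 21.9%, with both in a few. Ribosomal protein genes with the box had a median of 1849 RPKM and those without it 1571, ranges of 142 to 3735 and 41.5 to 3745 that overlap almost wholly. The highest ribosomal protein gene of all, rps2502, held no exact match. Outside the list the 50 genes with the box had a median of 167 RPKM, against 22.7 for the 4916 without it. All 3 tef1 genes above, cpc2 and tpi1 were among these 50.

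Of the 12 highest coding genes outside the ribosomal protein list, 5 held a HomolD box and 3 others held TATAAA on the gene's strand: the glycolytic genes tdh1, gpm1 and pgk1. The deposited start of tdh1, 2807534, lies inside its window, and that of pgk1, 4159543, lies before its window. In both, TATAAA thus lies after the deposited start. These 3 are shown with TATAAA in capitals, from the same build.
tdh1, II:2807530-2807579, plus strand: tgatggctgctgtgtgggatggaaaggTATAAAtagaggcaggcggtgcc
gpm1, I:5174664-5174713, minus strand: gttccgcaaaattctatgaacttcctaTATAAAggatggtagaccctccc
pgk1, II:4159479-4159528, minus strand: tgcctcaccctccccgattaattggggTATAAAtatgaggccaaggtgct

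TATAAA itself did not follow the level. With coding genes split by level into deciles, from 1 for the lowest to 10 for the highest, it occurred in 30.9% of promoters in decile 1, in 30.9% in decile 10 and in 30.2% of all, and in 19.0% of ribosomal protein promoters. The HomolD box in contrast was in none of the 511 promoters of decile 1, in 1.76% in decile 9 and in 22.1% in decile 10. Decile 10 includes nearly all ribosomal protein genes, but among the 100 highest coding genes outside that list 17% held the box as well. The list was drawn by gene symbol and product name, so the ubiquitin fusions ubi1, ubi3 and ubi5, rpl44 and cpc2 count as outside it.

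Most ribosomal proteins of fission yeast are made from duplicated genes, and the copies were unequal. There were 52 sets of numbered copies with 109 genes. The highest copy exceeded the lowest by a median of 1.64-fold, by over 2-fold in 17 sets and by over 10-fold in 3. rpl1602 was at 1693 and 1609 RPKM and rpl1603 at 42.3 and 40.8. rpl3401 was at 3001 and 2952 and rpl3402 at 253 and 219, and rpl3001 was at 1578 and 1659 and rpl3002 at 152 and 132. The order of highest and lowest copy was the same in both libraries in 51 of the 52 sets. The SD of log2 level was 0.40 over the 52 sums of copies and 0.92 over the 109 genes in them. With the 28 genes outside the sets included, it was 0.59 over 80 proteins, copies summed, and 0.91 over 137 genes. A sum follows its highest copy and hides low ones, so a smaller SD of sums can come from the summing alone. Whether copies balance each other was not tested. The median of the sums was 3234 RPKM, and the 28 genes outside such sets had a median of 2628. In 4 sets, those of rpl3, rpl5, rpl10 and rpl12, over 20% of the windows of a copy are repeated in the genome, so reads shared between copies can narrow the difference there.

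**Figure D2:**
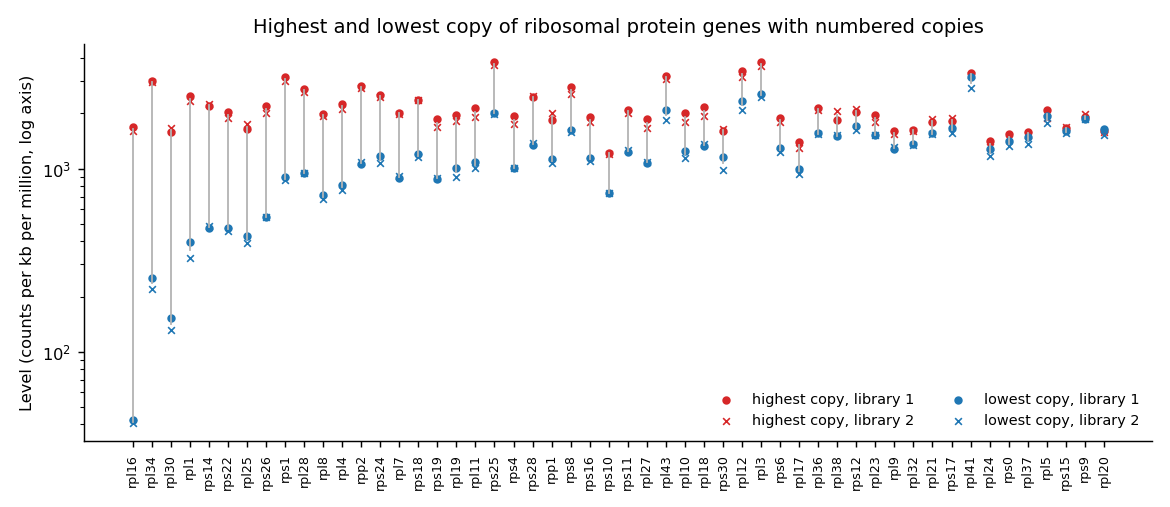
Level in each library (log axis) of the highest copy (red) and the lowest copy (blue) in 52 sets of numbered ribosomal protein genes, ordered by the ratio of their means; circles are library 1 and crosses library 2, and grey lines join the means. The ratios run from over 10-fold in 3 sets at the left to near-equal copies at the right.

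Histone genes are switched on in the phase of DNA synthesis, and their promoters are known for a box with AACCCT at its core. The 9 core histone genes stood close together. hht1 (histone H3) was at 598 and 653 RPKM, hta1 (H2A) at 606 and 597, htb1 (H2B) at 543 and 567, and hhf1 (H4) at 525 and 490, and hhf2 was the lowest at 314 and 287. The variant genes were lower: pht1, for H2A.Z, was at 37.4 and 35.9, and cnp1, for the centromeric histone H3, at 8.08 and 7.24. Each of the 9 core genes held AACCCT as 2 adjoining copies, and neither variant gene held it. The adjoining copies were present in 20 of all 5103 promoters, 9 of them those of histones. Of the 9 genes, 8 form 4 head-to-head pairs whose promoters overlap, so these are not 9 separate sequences. One promoter per locus is printed with each AACCCT, or AGGGTT where it lies on the other strand, in capitals.
hht1, I:4699628-4699677, plus strand: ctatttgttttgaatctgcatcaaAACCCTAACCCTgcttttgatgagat
hta1, III:1412286-1412335, minus strand: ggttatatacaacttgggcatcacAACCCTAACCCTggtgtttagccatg
hht2, II:1365036-1365085, plus strand: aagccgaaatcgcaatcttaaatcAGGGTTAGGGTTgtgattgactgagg
hht3, II:3529613-3529662, minus strand: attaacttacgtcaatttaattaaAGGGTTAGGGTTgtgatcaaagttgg
hta2, I:4053357-4053406, minus strand: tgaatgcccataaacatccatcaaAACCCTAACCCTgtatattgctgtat

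The bases around the start codon also changed with level. An A stood 3 bases before the ATG in 59.3% of genes in decile 1, 47.8% in decile 4, 71.4% in decile 9 and 81.4% in decile 10, against 60.8% of all 5101 genes with a usable coding sequence. In the 100 highest genes it was 89%, with G in 10% and C in none. The 3 elongation factor 1A genes and tdh1 are shown from 15 bases before the start codon, which is in capitals.
tef103, chromosome II: tcacattaaacaaaaATGggaaaggaa
tef102, chromosome I: tagtgattaatcaaaATGggcaaagaa
tef101, chromosome III: atttaattgtaaaaaATGggcaaggaa
tdh1, chromosome II: tacacttgattcaaaATGgcaattcct

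Codon choice differed between the highest genes and the rest. AAG made up 87.1% of lysine codons in the 100 highest genes and 37.4% over all genes. AAC made up 79.0% of asparagine codons in the 100 highest and 34.0% over all, CAC 68.8% and 27.6% of histidine codons, and CGT 72.3% and 30.9% of arginine codons. CGG, also for arginine, made up 0.127% and 6.16%. The shift lay at the top of the range: AAG was at 34.2% in decile 1, 37.4% in decile 8, 42.1% in decile 9 and 61.6% in decile 10. In the 100 highest genes outside the ribosomal protein list AAG was at 76.1% and AAC at 67.3%. The median share of G or C at the third codon position was 48.8% in the 100 highest genes and 32.6% over all. Across 5101 genes Spearman's rho of that share with level was 0.20, a description across genes that are not independent.

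**Figure D3:**
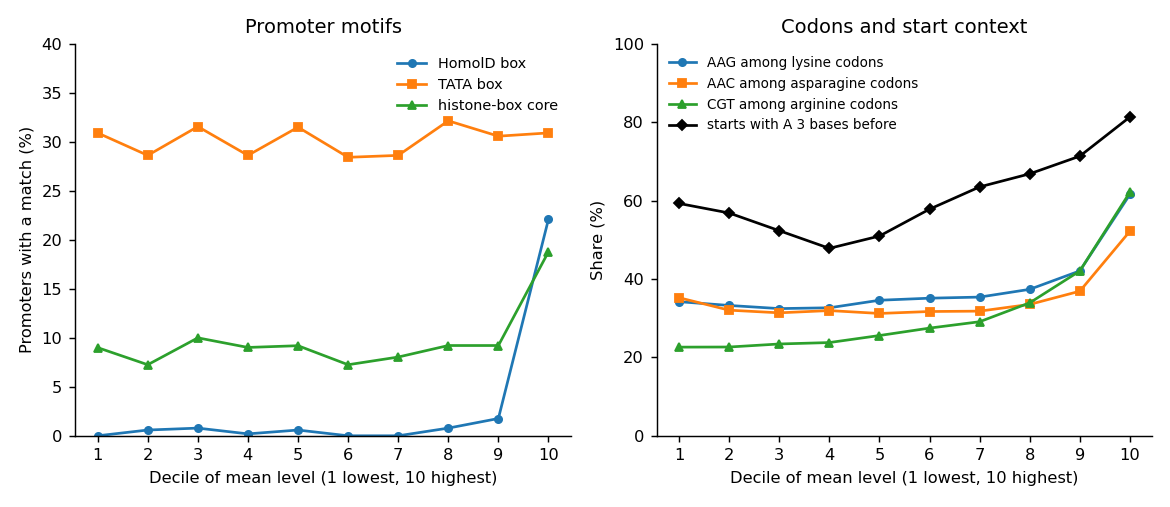
Left, share of promoters with a HomolD box (CAGTCACA, either strand), a TATA box (TATAAA, gene strand) or the histone-box core (AACCCT, either strand) by decile of mean level. Right, share of 3 codons among those of their amino acid, and share of start codons with A at the third base before them, by decile of level; AAG, AAC and CGT are highest in decile 10, at 61.6%, 52.2% and 62.2%.

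The 100 highest coding genes were short, and 69 of them are ribosomal protein genes. Their median annotated exon length was 731.5 bases, against 1799 over all coding genes. The median protein length was 171 amino acids in the 100 highest genes and 378 over all. For ribosomal proteins it was 148, and in the 100 highest genes outside that list it was 353, close to that of all genes. In deciles of length the median level was 34.7 RPKM in the shortest genes, up to 762 bases, and 18.2 in the longest, from 3682 bases. The shortest decile held 90 of the 157 genes over 1000 RPKM and also 26 of the 33 coding genes with fewer than 10 counts in the 2 libraries together. The level is already divided by exon length, and over all genes the relation was weak. Spearman's rho of exon length and level over 5104 genes was −0.15, that of coding length and level over 5101 genes −0.02, and that of exon number and level 0.03, as descriptions across genes. Single-exon genes made up 57% of the 100 highest and 51.0% of all.

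Among the other coding lists, the levels of subunits of 1 complex were compared. The 8 genes of the CCT chaperonin, which folds actin and tubulin, lay between 130 and 189 RPKM, an SD of log2 level of 0.18, against 2.23 over all coding genes. The SD was 0.48 for 11 genes of the RNA exosome, 0.54 for 7 of the Arp2/3 actin nucleator, 0.69 for 6 of the MCM helicase, 0.90 for 12 of RNA polymerase II and 1.18 for 15 of the vacuolar ATPase. Within polymerase II, rpb10 was at 213 and 187 and rpb3 at 20.2 and 18.3. Within the vacuolar ATPase, vma3, which encodes a membrane ring subunit, was at 361 and 335. Outside these complexes, act1 (actin) was at 1758 and 1597, pma1 (the plasma membrane proton pump) at 1795 and 1571, and the chaperone genes sks2, ssa2 and hsp90 at 2534 and 2537, 2386 and 2622, and 1683 and 1977. Cell-cycle regulators were low by comparison. The B-type cyclin cdc13 was at 90.3 and 82.8, the cyclin-dependent kinase cdc2 at 41.8 and 32.7, and the inhibitory kinase wee1 at 7.11 and 5.95.

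The glucose, nitrogen, thiamine and meiosis lists had medians under that of all coding genes, 23.7 RPKM. The glucose-repressed list of 7 had a median of 3.72 RPKM, with inv1 (invertase) at 0.781 and 0.655 and fbp1 (fructose-1,6-bisphosphatase) at 2.81 and 1.92. ght5, a high-affinity hexose transporter outside that list, was at 99.1 and 106. The median was 10.9 for 11 genes of nitrogen starvation and 15.2 for 5 thiamine-repressed genes. Among the last, nmt1, whose promoter is used as a switch in this yeast, was the lowest at 0.284 and 0.188, and the highest mean was 65.1. The 15 meiosis genes had a median of 2.50, and none reached the median of coding genes. Their lowest was spo4, needed for the second meiotic division, at 0.0794 and 0.105, and rec8, the meiotic cohesin, was at 3.12 and 3.04. The 3 phosphate-repressed genes had a median of 58.6. The core stress list of 10 had a median of 109, with gpd1, glycerol-3-phosphate dehydrogenase, at 620 and 610 and hsp9 at 400 and 405. Its members were uneven, with means from 0.856 to 615. Of the 10, 8 exceeded the median of coding genes and 1 was under 1 RPKM.

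The 4 dihydrouridine synthase genes that the study deletes elsewhere were all read in these libraries. dus3 was at 42.2 and 38.8 RPKM, dus1 at 32.2 and 31.4, dus2 at 30.8 and 26.7, and dus4 at 7.19 and 7.01. The common marker genes ura4, leu1, ade6, his3, his7, arg3 and lys1 were all read, at means of 26.2 to 272. The 8 M-specific mating genes had a median of 2.73, and only 2 of them exceeded the median of coding genes. Of these mat1-Mc was at 56.3 and 43.4, with counts equal to those of the separate mating-region entry SPMTR.04, and the pheromone gene mfm2 was at 34.7 and 24.1. The other pheromone genes mfm1 and mfm3 had means of 0.405 and 1.72, and mat1-Mi had 0 and 4 counts, as did the silent cassette's mat3-Mi. The 4 P-specific genes that could be matched, map1 to map4, had means of 1.13 to 2.76 and a median of 1.47. The silent cassettes carry copies of the mating-type genes, and all 31-base windows of mat1-Mc are repeated in the genome, so its reads cannot be placed at 1 locus. Strain mating type was not tested beyond these values.

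**Figure D4:**
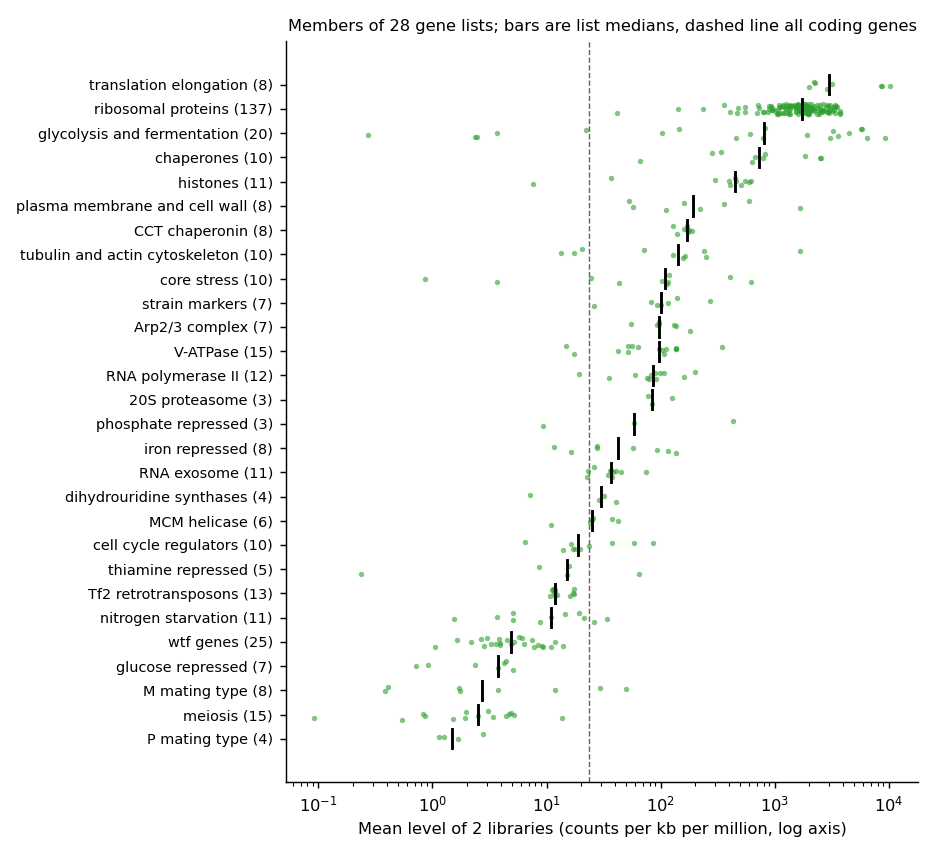
Mean level (log axis) of each member with a count in 28 gene lists, ordered by list median (black bars); the dashed line is the median of all coding genes. Elongation, ribosomal protein and glycolysis lists are at the top, and glucose-repressed, meiosis and mating-type lists at the bottom.

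Coding genes near chromosome ends were lower. The 191 coding genes within 100 kb of an annotated chromosome end had a median of 7.64 RPKM, against 24.2 for the 4913 farther in, and 18.3% of them, against 2.24%, were under 1. This held for chromosome I at a median of 3.24 and chromosome II at 4.22. On chromosome III, whose ends carry the ribosomal DNA arrays, the median was 18.1. Repeated elements were low but read: the 25 wtf genes, a family of spore-killing meiotic drivers, had a median of 4.86 and none exceeded 14.1. Of these entries, 16 are among the coding promoters read above, with a median of 5.91. Another gene overlaps 8 of the 25 on the same strand, so reads can be shared. The 13 Tf2 retrotransposons lay between 10.8 and 17.4, and as near-identical copies they share reads.

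Only 34 of 7000 genes had no count in either library: 28 SPNCRNA genes, 2 mating-region entries and 4 coding genes. The coding genes were SPBC12C2.14c, mug96, new14 and SPBPB21E7.05, with exon lengths of 243 to 464 bases. For them a count of 0 allows levels of up to 0.146 to 0.278 RPKM in library 1 and 0.161 to 0.307 in library 2, at 3 counts per library. Nearly every coding gene was thus read at this depth: 5040 (98.7%) had at least 10 counts in both libraries and 3545 (69.5%) at least 1000. Low counts do not separate transcription at a low level from reads placed by error. Of the 28 SPNCRNA genes, SPNCRNA.366 to SPNCRNA.369 lie in 1 stretch of chromosome II, 1617399 to 1620937, and SPNCRNA.233, SPNCRNA.333 and SPNCRNA.396 in 1 stretch of chromosome I, 3769525 to 3776756, each in its chromosome's centromere region.

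The highest gene of any class was srp7 (SPNCRNA.98, chromosome I, 4268566 to 4269064, plus strand), the 7SL RNA of the signal recognition particle, at 43723 and 55661 RPKM and 2.18% and 2.78% of the counts outside ribosomal RNA. Next came sno12 (SPSNORNA.32), a box H/ACA small nucleolar RNA, at 26386 and 31238, and snu32, the U3B RNA of ribosomal RNA processing, at 17964 and 20843. The paralogue snu3 was at 12462 and 13625. The spliceosomal RNAs were lower: snu4 (U4) was at 3172 and 4047, snu6 (U6) at 3293 and 2989, snu2 (U2) at 2485 and 3437, and snu1 (U1) at 1940 and 3662. snu5 (U5) was at 257 and 549. The level divides by the annotated length, which was 425 to 799 bases for these spliceosomal genes and 190 for sno12. Whether the annotated lengths match the mature RNAs was not tested, and the order of levels depends on them. mrp1, the RNA of RNase MRP, was at 6696 and 5847. On the same strand snu6 overlaps cwf21, snu1 overlaps gpt2 and mrp1 overlaps SPNCRNA.727, so these levels can include shared reads. snR42, another box H/ACA RNA, was at 8075 and 9175. It and sno12 are printed whole. They are the 2 highest genes with an SPSNORNA identifier, which leaves out the U3 genes, that overlap no other gene on the same strand. Their last ACA, 3 and 4 bases from the 3′ end, is in capitals, and the letters are those of the DNA.
sno12, III:583416-583605, plus strand: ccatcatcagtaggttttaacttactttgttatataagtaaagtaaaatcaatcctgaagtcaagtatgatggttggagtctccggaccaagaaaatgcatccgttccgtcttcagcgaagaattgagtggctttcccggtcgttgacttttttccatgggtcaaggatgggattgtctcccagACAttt
snR42, II:1917406-1917613, plus strand: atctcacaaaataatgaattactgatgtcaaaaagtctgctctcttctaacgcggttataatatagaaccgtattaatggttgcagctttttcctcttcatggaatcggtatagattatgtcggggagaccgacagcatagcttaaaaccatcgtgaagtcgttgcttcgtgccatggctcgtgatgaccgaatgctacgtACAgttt

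Several further high non-coding genes share reads or lie next to one another. Which member of an overlapping pair supplies the reads was not tested. snR30, the U17 RNA, and SPNCRNA.906 overlap and held 236941 and 237040 counts in library 1. SPNCRNA.510 and SPNCRNA.942 overlap, as do SPNCRNA.507 and SPNCRNA.808. SPNCRNA.1095, at 16176 and 9928, and SPNCRNA.1094, at 12767 and 9116, lie side by side at the left end of chromosome III (23658 to 24438), where the annotated ribosomal DNA lies. The highest nuclear tRNA genes, 4 tRNA-Glu genes at 2731 to 2810 RPKM, have near-equal counts, and copies of 1 tRNA share reads. In the mitochondrial genome SPMIT.10 was the highest, at 7648 and 7517, and SPMIT.09 the lowest of 11, at 71.3 and 49.6.

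Some coding genes ranked high with counts of a ribosomal RNA gene. There were 5 coding genes that contain or touch a 5S ribosomal RNA gene on the same strand: mfc1, SPAC5H10.03, agp3, SPBC24C6.03 and pan3. They held 2.05% of counts in library 1 and 4.43% in library 2, and the first 4 ranked 42, 43, 82 and 87 among coding genes. The 5S genes inside them had 92.2% to 99.9% of their counts in library 1. For mfc1 the table gave 1652 and 3540 RPKM. Only 124 and 68 of its 229094 and 444889 counts were left after taking off those of the 5S gene, which is a level of 0.894 and 0.541. SPAC5H10.03 kept 130 and 113 RPKM, SPBC24C6.03 kept 18.4 and 17.4, agp3 kept 2.58 and 2.99, and pan3 kept 14.4 and 14.8. None of the 5 is among the 25 highest coding genes, but the first 4 named count among the 100 highest. Promoter motifs, start context, codon use, exon length and protein length of the 100 highest genes were not redone without them.

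The libraries agreed closely for most genes. Over 6660 genes with at least 10 counts in both, Pearson's correlation of log2 levels was 0.992 and Spearman's rho 0.993, as descriptions across genes. The log2 ratio of library 2 to library 1 had a median of −0.12 and an SD of 0.32, and for 5040 coding genes an SD of 0.23, with 49 genes (0.972%) beyond 2-fold. Coding genes whose lower count was 10 to 99 had an SD of 0.65, and those with at least 100 counts in both an SD of 0.20. The ratio followed RNA class. Its median was 0.44 for nuclear tRNA genes, 0.35 for SPSNRNA genes, 0.08 for small nucleolar RNAs, −0.12 for coding genes and −0.18 for SPNCRNA genes. edgeR's common biological coefficient of variation over 6652 genes was 0.119. Counts differed by far more than counting error, with a chi-square over its degrees of freedom of 128, so the libraries are not 1 library deposited under 2 names.

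**Figure D5:**
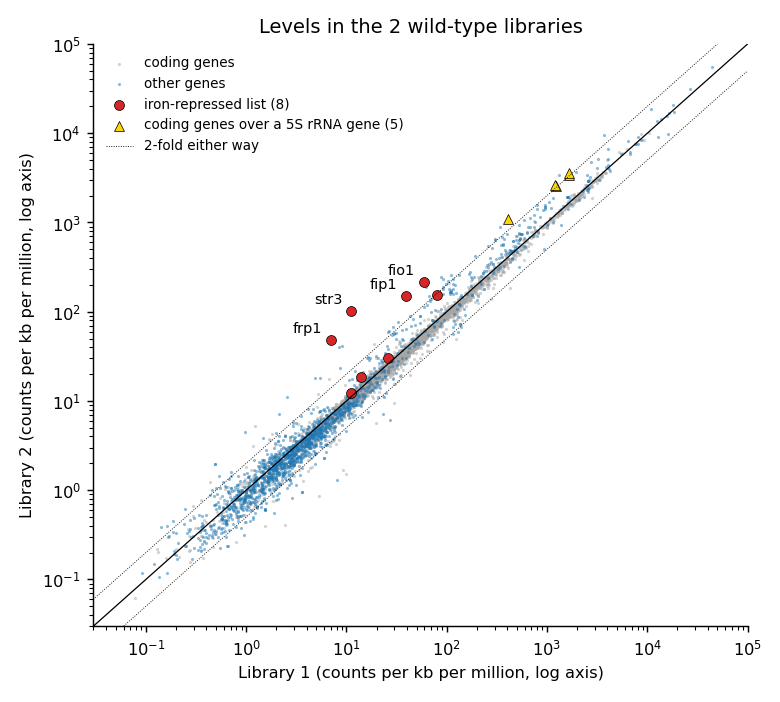
Level in library 2 against library 1 (both log axes) for genes with at least 10 counts in both; the solid line marks equal levels and dotted lines 2-fold. Iron-repressed genes (red) lie above the line, 4 of the 8 beyond 2-fold, and so do the 5 coding genes over a 5S ribosomal RNA gene (yellow).

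Of the 5 coding genes with the largest excess in library 2, among those with at least 100 counts in both, 4 belong to iron uptake, which fission yeast represses when iron is plentiful. str3, a siderophore transporter, was at 11.2 RPKM in library 1 and 102 in library 2, a 9.18-fold difference. frp1, a ferric reductase, was at 7.04 and 47.8, a 6.79-fold difference. fip1 and fio1, a permease and an oxidase that work together in iron uptake, were at 39.1 and 149 and at 58.9 and 213. The last of the 5, the arylsulfatase gene SPBPB10D8.02c, was at 1.23 and 5.29. str1 was at 79.6 and 155, and the other members, php4, sib1 and sib2, lay within 1.5-fold. All 8 listed genes were higher in library 2, with a median log2 ratio of 1.40 and the lowest at 0.14. Over 5040 coding genes the median was −0.12, and 833 were above 0. The ratios are not corrected for that shift of the median, which lowers the number above 0. In the other direction the largest differences, among genes with at least 100 counts in both, were in SPBC19C7.04c at 30.1 and 9.57 and SPCC737.04 at 3.66 and 1.28, both of which share a strand with an overlapping SPNCRNA gene, the aldo-keto reductase gene SPAC750.01 at 124 and 50.0, SPAC11D3.19 at 4.50 and 1.81, and dak2, a dihydroxyacetone kinase, at 7.87 and 3.31. These are differences between 2 libraries of 1 group, and the labels name nothing that differs between them.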

How the data were processed

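The authors deposited raw read counts per gene. The submitters' processing notes name Trimmomatic 0.36, TopHat2, featureCounts and the ASM294v2 build. Coordinates of genes are those of the deposited count table. Printed sequences and the starts used for promoters are from RefSeq ASM294v3, matched by gene identifier (6844 of 7049 genes matched). Levels were computed from counts with pandas 2.3.3 as counts per kb of exon per 1000000 counts outside ribosomal RNA genes, without a pseudocount. Genes with no count stayed in medians. edgeR 4.0.16 (TMM, filterByExpr) gave the common dispersion of an intercept-only model, with DESeq2 1.42.0 size factors as an alternative, and the steps were tested on simulated data. No test between groups was made, since only 1 group was used. Members, the 28 lists and the alternatives were chosen with earlier results of these data known. Named were the 25 highest coding genes (or a summary of them), up to 5 per non-coding class, up to 6 per list, 5 coding genes per direction between libraries and silent coding genes; other genes were named after their values were seen. Start context, codon use and duplicated genes were added after the data were seen. Amino acid composition and names of mitochondrial genes were not analysed here.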

Additional observations from a re-analysis of the deposited data

How the results depend on the processing

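No paired analysis was possible because only 1 group was described. The 25 highest coding genes included 12 of the same genes when counts were not divided by length, all 25 under scaling to the sum of counts per kb, to coding genes or without genes over 5S genes, and 22 to 24 when 1 library was left out. The share of counts in the 100 highest genes, 30.5% as the mean of both libraries, was 33.7% without length, 26.5% under scaling to the sum of counts per kb, 36.0% of coding counts, 28.8% without the 5 coding genes over a 5S gene (chosen after seeing the data) and 28.8% to 31.6% with 1 library left out. The median coding level, 23.7, was 45.1 counts per 1000000 without length, 21.9 under the sum of counts per kb, 28.0 under the coding total and 22.6 to 24.7 with 1 library left out. Silent genes numbered 34 at 0 counts, 104 at up to 3 counts in both libraries, 242 under 10 counts, 101 under 0.1 RPKM and 56 to 62 with 1 library left out; silent coding genes numbered 4, 13, 46, 22 and 8 to 9. The SD of the log2 ratio, 0.32, was 0.41 with all genes and a pseudocount of 1 count, 0.25 at 100 counts or more and 0.23 in coding genes, and the Pearson correlation stayed between 0.990 and 0.994. The coefficient of variation, 0.119, was 0.132 with library totals alone and 0.0897 in coding genes. HomolD boxes were in 43.1% of ribosomal protein promoters on the gene strand alone. Medians of 26 of 28 lists moved by more than their spread when counts were not divided by length, but Spearman's rho of the list medians under both scalings was 0.96. Libraries of this depth limit statements on genes under 10 counts.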
